A study of Homo sapiens with 5 samples.

Results

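FOXQ1, a forkhead transcription factor that can drive epithelial cells towards a mesenchymal state, was lower in both MIAPaCa2 populations given the α2 integrin than in the vector control, and lower with the tailless α2 than with the α9α2 chimera. Of the other regulators, ZEB1 was lower with the tailless α2 by 1 of its 4 probe sets, and no further member probe set was 2-fold apart in any comparison. The set comprised 10 genes: FOXQ1, the E-box repressors SNAI1, SNAI2, ZEB1 and ZEB2, the factors TWIST1 and PRRX1, the intermediate filament gene VIM, and the epithelial regulators ESRP1 and GRHL2. All probe sets that the platform annotation maps to 1 of these genes alone were taken, which gave 21 of 54613 probe sets, and the 10 genes were part of 19775 genes with such a probe set. The genes were selected from their known roles with earlier results of these arrays in view, FOXQ1's among them. Their levels and differences are therefore a description, with no test.

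Each of 5 populations of MIAPaCa2, a human pancreatic ductal adenocarcinoma cell line, was profiled on 1 expression array. MP2-α2Δ cells carried an α2 integrin without its cytoplasmic domain and grew on collagenI coated at 25 µg/mL. MP2-α9α2 cells carried a chimera of the α9 outer and membrane-spanning parts with the α2 cytoplasmic domain, and grew on the tenascin FNIII domain coated at 10 µg/mL. MP2-α2/CI cells carried full-length α2 and grew on collagenI at 25 µg/mL, MP2-α2/TC cells carried the same α2 in standard culture, and MP2-mock cells were the vector control in standard culture. All populations were kept under drug selection, were stable, and full-length α2 was driven by a cytomegalovirus promoter. MP2-α2/CI and MP2-α2/TC came from a single panning. The α2 and α2Δ constructs were in a zeocin vector and the α9α2 chimera in a neomycin-resistance vector, so construct, substrate and drug cannot be told apart between MP2-α2Δ and MP2-α9α2.

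With 1 array per population, no difference has a replicate check, and the number of arrays limits the precision. Values are log2 array signals. The lowest value was 2.21 on the MP2-α2Δ and MP2-α9α2 arrays and 2.24 on the MP2-α2/CI, MP2-α2/TC and mock arrays, and between 40.7% and 42.2% of probe sets lay at it. Among those that exceeded the floor on all 5 arrays the median was 7.72 and 7.69 on the first pair and 6.88 to 6.89 on the other 3, so differences were taken only within each of these sets. Across sets, a probe set's percentile on its own array, the percent of probe sets below it, is given beside its value. The floor lay at the level that 95% of 107 probe sets for odorant receptors did not exceed, which was between 2.21 and 2.27, and lower values were raised to it before a difference was taken. A call is a difference of at least 2-fold. The α2 gene ITGA2 was at 3.28 and 7.28 on its 2 probe sets on the MP2-α2Δ array and at the minimum on the other 4. The study states that the transgene lacks the stretch these probes read, so they do not check the labels, and the source of the signal on the MP2-α2Δ array was not settled. The keratins KRT8, KRT18 and KRT19 were above the floor on all 5 arrays. A further keratin, KRT7, was above it on the MP2-α2Δ array alone, at 2.37. The epithelial adhesion genes CDH1 and EPCAM stayed at or near the floor. All 3 acinar and all 3 islet markers on the array lay below the floor on every array. Of 5 blood markers CD14 was above it on every array, at 2.91 to 3.38, and the other 4 on none. Of 4 endothelial markers PECAM1 and CDH5 were above it on every array, at 2.21 to 2.78, and the other 2 on none. Being above the floor thus includes values close to the floor. Of 7 fibroblast markers, COL1A1 and COL1A2 were above it on every array, THY1 and PDGFRB on the MP2-α2Δ and MP2-α9α2 arrays, and DCN, LUM and COL3A1 on none.

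Epithelial cells can loosen their junctions, exchange keratin for vimentin and become motile, a shift called the epithelial-mesenchymal transition. SNAI and ZEB proteins repress epithelial genes through E-boxes in their promoters, while TWIST1 and PRRX1 are basic helix-loop-helix and homeobox factors that promote the mesenchymal state. GRHL2 keeps epithelial genes on, and ESRP1 is an RNA-binding protein that maintains epithelial splicing. FOXQ1 binds DNA through a forkhead domain, has been linked to invasion in several carcinomas, and lies beside another forkhead gene, FOXF2.

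The promoter stretches below are shown because 2 are from members whose transcripts were measured, and the third shows what an E-box promoter of the kind bound by SNAI and ZEB proteins looks like. Each is the 250 bases before the start site, from RefSeq on GRCh38.p14, plus strand, with CAGGTG or its complement CACCTG (an E-box) and TGTTTA or its complement (a forkhead motif) in capitals. FOXQ1 is at chr6:1311848-1312097 and holds neither of these exact sequences, and other forms of a forkhead motif were not searched for. VIM, at chr10:17227991-17228240, holds a forkhead motif at -112 from the start site. CRB3, a cell polarity gene repressed by SNAI1 in epithelial cells, is at chr19:6464021-6464270 and holds E-boxes at -228, -208, -147, -89 and -60.
FOXQ1: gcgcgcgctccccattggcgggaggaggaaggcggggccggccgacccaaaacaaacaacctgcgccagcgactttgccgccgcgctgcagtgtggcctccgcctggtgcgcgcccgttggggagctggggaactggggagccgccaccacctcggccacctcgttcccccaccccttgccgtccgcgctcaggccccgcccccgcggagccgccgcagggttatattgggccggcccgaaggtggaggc
VIM: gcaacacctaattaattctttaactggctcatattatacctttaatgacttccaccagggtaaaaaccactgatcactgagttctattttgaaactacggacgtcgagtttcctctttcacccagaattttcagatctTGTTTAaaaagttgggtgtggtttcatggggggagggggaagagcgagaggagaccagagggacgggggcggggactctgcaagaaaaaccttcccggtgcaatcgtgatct
CRB3: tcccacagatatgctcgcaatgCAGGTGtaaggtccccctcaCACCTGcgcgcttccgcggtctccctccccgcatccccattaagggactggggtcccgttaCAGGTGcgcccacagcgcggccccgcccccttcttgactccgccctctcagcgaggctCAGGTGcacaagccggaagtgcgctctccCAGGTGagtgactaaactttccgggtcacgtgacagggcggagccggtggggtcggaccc

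In the whole window, 250 bases before and 50 after the start, 20.6% of 35116 RefSeq promoters held an E-box and 12.3% a forkhead motif. Of the 10 members, 5 had a window. FOXQ1, ZEB2 and PRRX1 held neither motif, VIM held 1 forkhead motif, and of the 7 start sites of ZEB1, 2 held an E-box and 3 a forkhead motif. Of 18 genes of the epithelial junction and keratin list with a window, 14 held an E-box in at least 1 of their windows, beside 24.1% of all genes with a window counted the same way. These comprised all 5 that were not above the floor on every array, among them CLDN3 and CLDN7, and 9 of the 13 that were, among them OCLN, TJP1 and DSP. The 13 included genes close to the floor, such as CRB3 at 2.24 to 2.64, so nothing is read from this split. CRB3 and CLDN7 held the most E-boxes in 1 window, 5 each. The 18 genes had 28 windows, and the number of windows per gene was not matched to that of all genes. A match describes the letters only.

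FOXQ1 had 1 probe set, 227475_at, above the floor on every array. It read 3.63 in MP2-α2Δ cells, against 6.43 in MP2-α9α2 cells. It read 7.65 in MP2-α2/CI, 5.43 in MP2-α2/TC and 8.80 in mock cells. On its own array it stood above 58.6%, 68.9%, 79.0%, 68.1% and 85.2% of probe sets, in that order of populations. Among the 3 arrays of the full-length α2 experiment the mock control was highest and α2 in standard culture lowest, with collagenI between them. In such bulk RNA, fewer cells with the transcript and less RNA per cell cannot be told apart.

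**Figure D1:**
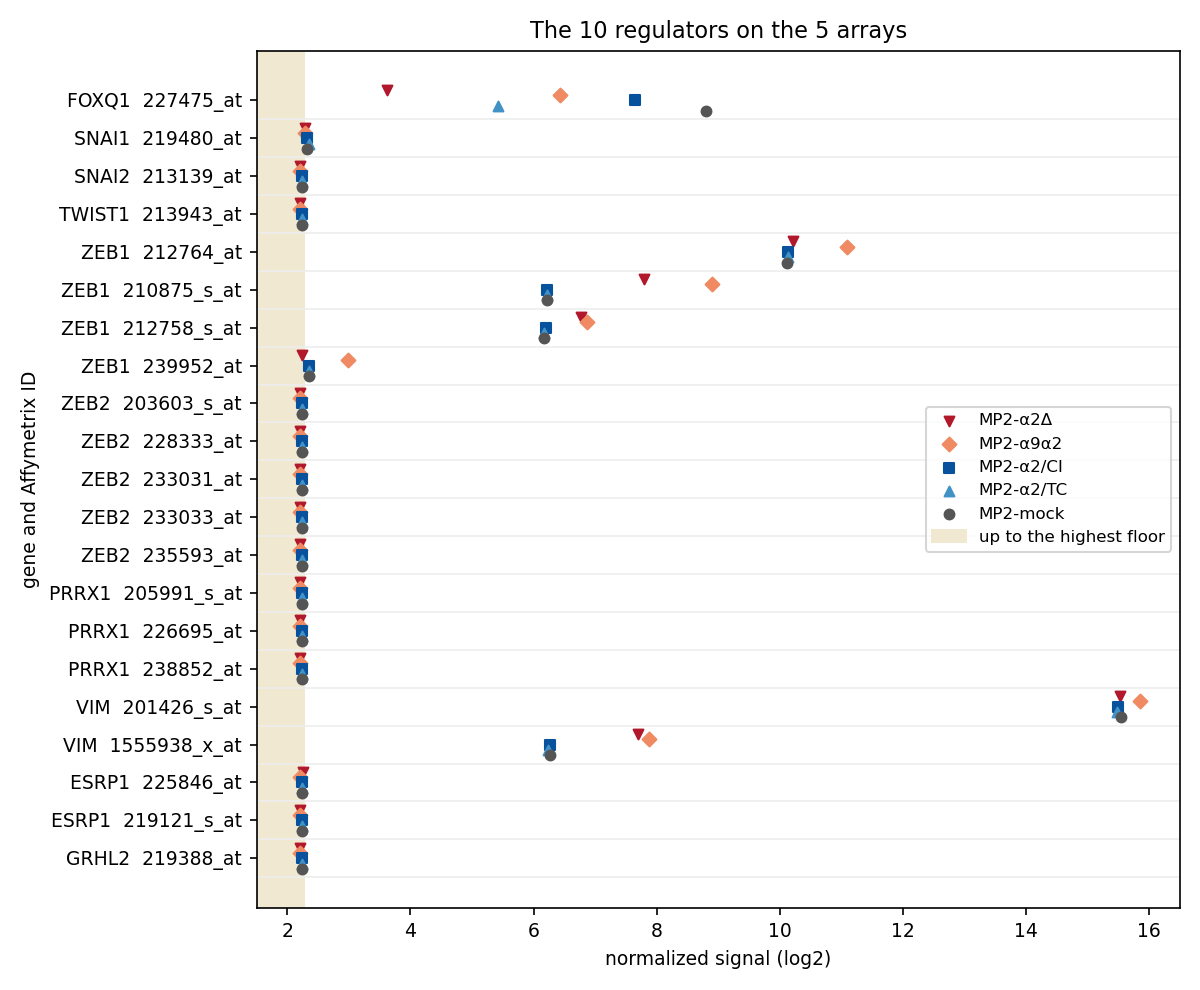
Log2 array signal of the member probe sets on the 5 arrays, 1 point per population, with shading up to the highest floor. Points of a row are offset downwards so that they can be seen. FOXQ1 runs between 3.63 and 8.80, ZEB1 and VIM stay level within the full-length α2 and mock arrays, SNAI1 lies just above the shaded range, and the other 6 genes lie in it.

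In MP2-α2/TC against mock cells FOXQ1 differed by -3.37 on the log2 scale, 10.4-fold lower, rank 7 from the lowest of 29885 probe sets above the floor on either array. Of the 8 member probe sets tested, it was the 1 called lower, and 0 were higher. Over all probe sets, 0.248% were at least 2-fold lower and 0.214% higher, and nothing is read from the count because FOXQ1 was chosen from this contrast. Counted by gene, 0.378% were lower and 0.292% higher.

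In MP2-α2/CI against mock cells the difference was -1.15, 2.22-fold lower, rank 65 from the lowest of 29696. It was again the 1 call among 8 member probe sets, beside 0.256% of probe sets lower and 0.236% higher, and 0.389% of genes lower and 0.262% higher. These first 2 comparisons share the mock array, so their common direction is not independent. The FOXQ1 value lay near the 2-fold limit here and was not called at 3-fold.

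On collagenI, FOXQ1 was 2.22 higher than in standard culture, 4.66-fold, and ranked first from the highest of 29810 probe sets. This difference follows from those of MP2-α2/CI and MP2-α2/TC against mock cells, and reuses the same MP2-α2/TC value, 5.43. It is therefore not independent of them, and nothing further is read from the rank. Higher calls made up 0.0335% of probe sets and 0.0395% of genes, and lower calls 0.104% and 0.15%. FOXQ1 was the 1 member called higher of 8 tested, with 0 lower.

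In MP2-α2Δ against MP2-α9α2 cells FOXQ1 differed by -2.81, 7.01-fold lower, rank 77 from the lowest of 30975. Calls were far more common in this comparison, 4.95% of probe sets lower and 7.56% higher, and 4.97% of genes lower and 10.1% higher. Of 9 member probe sets tested, 2 were lower and 0 higher, FOXQ1 and a ZEB1 probe set. The median of the member probe sets was -0.32, beside 0 over all probe sets tested. The 9 came from 5 genes, 4 from ZEB1 and 2 from VIM, and FOXQ1 was chosen with these data known. No shift of the set is therefore read from the median.

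**Figure D2:**
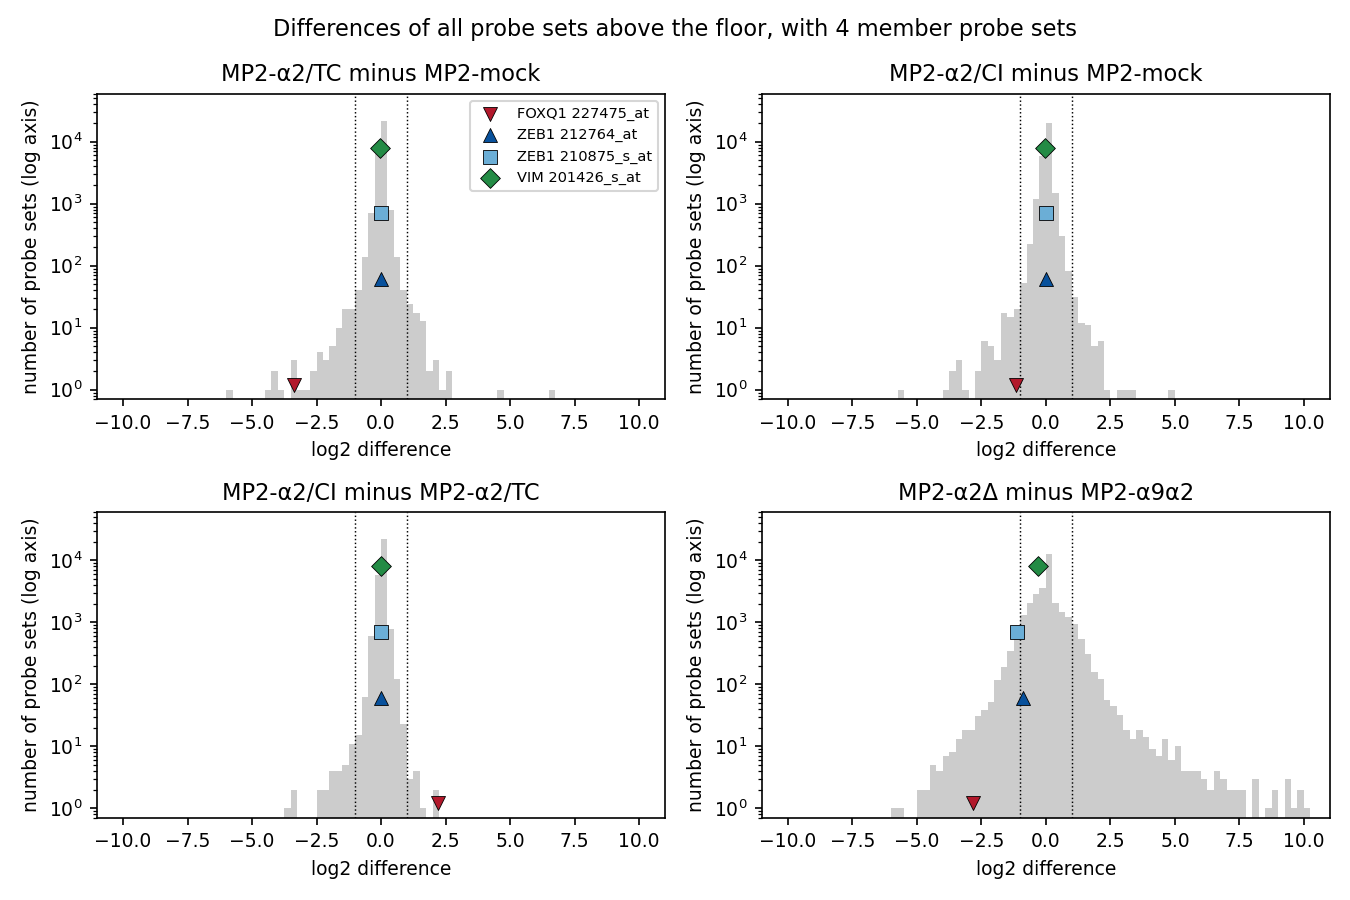
Grey bars count probe sets above the floor on either array (log axis) by log2 difference, 1 panel per comparison, with dotted lines at the 2-fold limits. The markers are FOXQ1, the 2 brightest ZEB1 probe sets and the leading VIM probe set, placed by their difference at an arbitrary height; FOXQ1 lies past the limit in every panel, at -3.37, -1.15, 2.22 and -2.81, and 210875_s_at of ZEB1 at -1.10 in the last.

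ZEB1, a zinc-finger repressor of CDH1, was above the floor on all 5 arrays with all 4 of its probe sets. The leading probe set, 212764_at, read 10.22 in MP2-α2Δ cells against 11.09 in MP2-α9α2 cells, and 10.13, 10.13 and 10.12 in MP2-α2/CI, MP2-α2/TC and mock cells. The 3 arrays of the full-length α2 experiment did not differ by more than 0.03 on any ZEB1 probe set. Between MP2-α2Δ and MP2-α9α2 cells the 4 probe sets differed by -0.88, -1.10, -0.09 and -0.75, so 1 of 4 passed the 2-fold limit. The passing probe set, 210875_s_at, read 7.80 and 8.90, and 212758_s_at, with the smallest difference, read 6.78 and 6.87. The dimmest, 239952_at, read 2.23 and 2.98, near the floor. The 4 probe sets shared a sign but disagreed on the size.

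VIM, the main intermediate filament of mesenchymal cells, had its leading probe set among the brightest on every array. 201426_s_at read 15.54 in MP2-α2Δ cells against 15.85 in MP2-α9α2 cells, and 15.50, 15.48 and 15.54 in MP2-α2/CI, MP2-α2/TC and mock cells, above 99.96% to 99.98% of probe sets. Its difference between MP2-α2Δ and MP2-α9α2 cells was -0.32, and that of the second probe set, 1555938_x_at, at 7.70 and 7.87, was -0.18. In the other 3 comparisons the VIM differences ran from -0.05 to 0.02. The highest values on the arrays were 15.83 to 16.28, so 201426_s_at lay near the top of the range. Whether this limits its differences was not tested. The vimentin partners and other intermediate filament genes gave 0 calls among 11 genes tested in each of the first 3 comparisons. In these, 0.0395% to 0.389% of all genes were called in each direction. With tailless α2 against the chimera SYNM, a filament protein that binds vimentin, was the 1 of 12 called, at 8.84 and 10.02, a difference of -1.18. Over all genes 4.97% were lower and 10.1% higher there, so nothing particular to this list is read from the counts.

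SNAI1, a repressor of CDH1, stayed close to the floor. It read 2.29 in both MP2-α2Δ and MP2-α9α2 cells, and 2.31, 2.36 and 2.31 in MP2-α2/CI, MP2-α2/TC and mock cells. SNAI2, TWIST1, ZEB2, PRRX1 and GRHL2 lay at the minimum with every probe set on all 5 arrays, ZEB2 with 5 probe sets and PRRX1 with 3. ESRP1 was above the floor with 1 of its probe sets on 1 array, at 2.25 in MP2-α2Δ cells. Values at the minimum have no order, and a low level and no transcript cannot be told apart there. Of the 21 member probe sets 12 were at the minimum on all 5 arrays and 8, of 4 genes, were above the floor on all 5.

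The absence of differences among the full-length α2 arrays is shared by most probe sets. In MP2-α2/TC against mock cells, 3 of the 8 members tested had the same value to within 1e-06 on both arrays, and 7 were within 1.1-fold. Over all probe sets tested, 50.2% had the same value and 84.1% were within 1.1-fold. In MP2-α2/CI against mock cells 4 members were the same and 7 within 1.1-fold, beside 45.3% and 76.4% of all. On collagenI against standard culture 3 were the same and 7 within 1.1-fold, beside 52.0% and 85.1%. Of the 9 members tested with tailless α2 against the chimera 1 was the same and 3 were within 1.1-fold, beside 29.7% and 44.0%. Equal values also occurred at high signals. KRT8 read 14.18 in MP2-α2/CI, MP2-α2/TC and mock cells, and MYC read 14.08 in both MP2-α2Δ and MP2-α9α2 cells. How much of this sameness comes from the processing was not tested, so level values, those of ZEB1 and VIM included, are not read as measured stability.

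The genes most like FOXQ1 were found by the distance between their 3 log2 differences and those of FOXQ1, over MP2-α2/TC minus mock, MP2-α2/CI minus mock and MP2-α2Δ minus MP2-α9α2, among 13534 genes. This likeness rests on 5 arrays and is a description. The nearest was TGFBI, a matrix protein induced by TGF-beta, at a distance of 1.98. It read 10.18 in MP2-α2Δ cells against 12.06 in MP2-α9α2 cells, and 9.62, 9.52 and 11.19 in MP2-α2/CI, MP2-α2/TC and mock cells, and its 3 differences were -1.67, -1.57 and -1.88. EHF, an epithelial ETS factor, followed at 2.46 with -1.49, -0.99 and -1.23. Of 6 EHF probe sets, 4 were called lower in MP2-α2/TC against mock cells and 3 in MP2-α2Δ against MP2-α9α2 cells. ACE, the angiotensin-converting enzyme, lay at 2.59 with differences of -1.40, -1.40 and -1.15, of which 1 of its 2 probe sets was called. RELB, an NF-kappa-B subunit, lay at 2.64 with -2.24, -1.53 and -0.45. NIBAN1 lay at 2.68 with -0.83, -0.81 and -2.02. RELB read 5.18, 4.47 and 6.71 in MP2-α2/CI, MP2-α2/TC and mock cells, the same order as FOXQ1, but with the tailless α2 against the chimera it did not reach 2-fold. Among 13535 genes, FOXQ1, ACE and TGFBI were the 3 that were at least 2-fold lower in all 3 differences. More genes, 17, were at least 2-fold lower in both differences against mock cells but at least 2-fold higher in MP2-α2Δ minus MP2-α9α2. Of genes higher in both differences against mock cells, 6 were higher and 6 lower in the third. Both differences against mock cells share the mock array. Unlike FOXQ1, TGFBI and ACE did not differ by 2-fold between collagenI and standard culture, at 0.10 and 0.

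**Figure D3:**
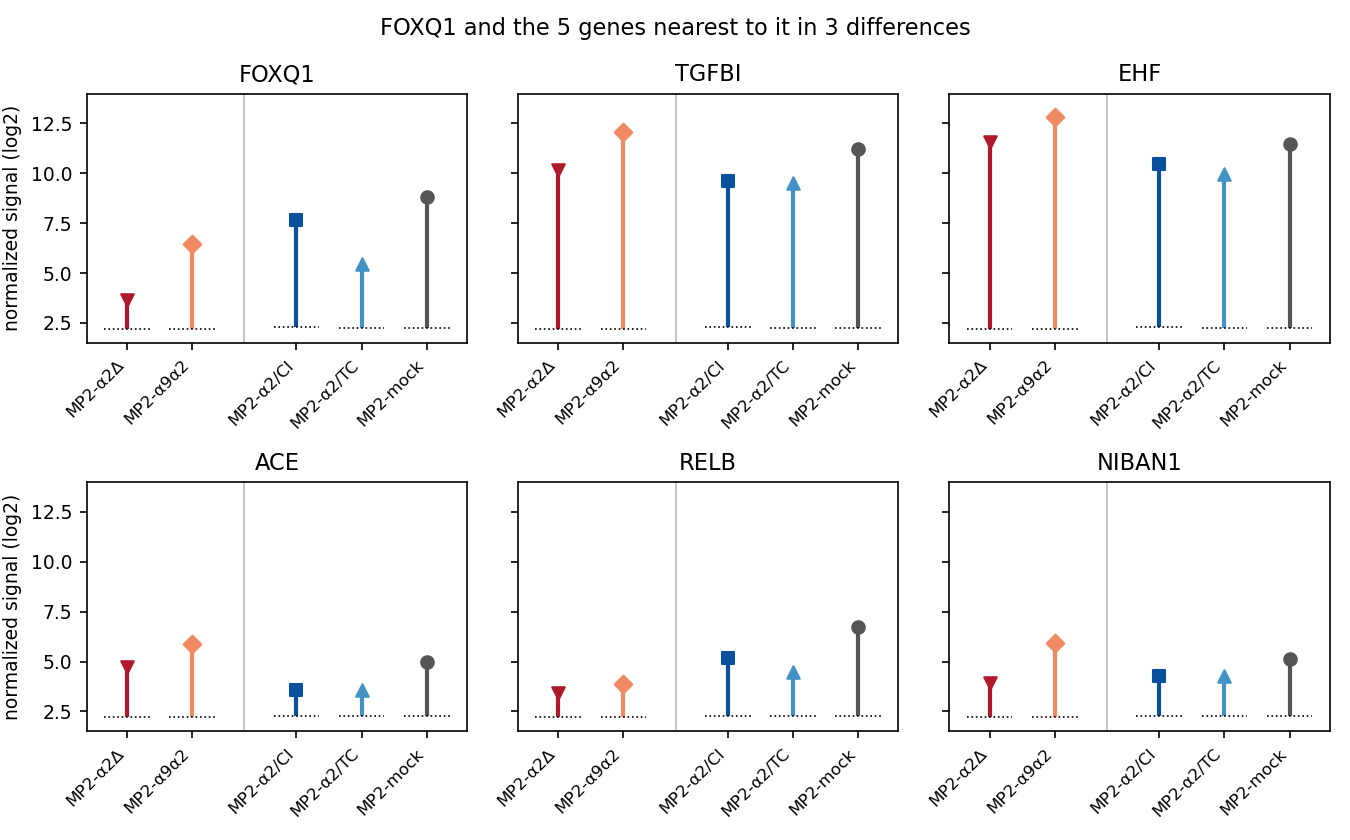
Log2 signal of FOXQ1 and the 5 genes nearest to it on the 5 arrays, with a line between the arrays of the 2 value ranges, which are not subtracted from each other. Stems start at each array's floor (dotted). TGFBI is lower in both α2 populations than in mock cells and lower with the tailless α2 than with the chimera, as FOXQ1 is, while FOXQ1 is the 1 of these genes that is 2-fold apart on collagenI against standard culture.

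Of 38 other forkhead genes on the array, 19 were above the floor on all 5 arrays, and none of the 19 tested was called in any of the 3 full-length α2 comparisons. There, 0.0395% to 0.389% of all genes were called in each direction, so nothing particular to the family is read from this. With tailless α2 against the chimera 3 of 23 were lower and 0 higher, beside 4.97% and 10.1% of all genes. FOXO1, a target of insulin signalling, read 3.55 and 6.26, a difference of -2.71, and both probe sets tested were called lower. FOXN3 read 9.75 and 11.06 (-1.31, with 3 of 7 probe sets called), and FOXF1 5.32 and 6.53 (-1.21). FOXF2 was at the minimum on all 5 arrays. Genes linked to FOXQ1 as targets or inducers gave 0 calls in all 4 comparisons, with 3 to 4 of 8 tested. Beside these shares of all genes, nothing is read from so few tested genes. Of the Wnt target genes, CCND1, a cyclin of the G1 phase, was the 1 of 7 lower in MP2-α2Δ against MP2-α9α2 cells, beside 4.97% of all genes. It read 8.99 and 10.61 (-1.62, 1 of 2 probe sets). No Wnt target gene of 7 tested was called in the other comparisons, and beside 0.0395% to 0.389% of all genes nothing is read from this.

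Epithelial junction and keratin genes gave 0 calls of 18 to 19 tested in each full-length α2 comparison. With 0.0395% to 0.389% of all genes called in either direction there, nothing particular to the list is read from this. Below the 2-fold limit, DSG2 differed by 0.43 and MUC1, a mucin, by -0.37 in MP2-α2/TC against mock cells. With tailless α2 against the chimera 2 of 21 were higher and 1 lower, beside 10.1% and 4.97% of all genes. DSG2, a desmosomal cadherin, read 9.48 and 4.57, a difference of 4.91 in which both probe sets were called. DSP, desmoplakin, read 10.83 and 9.70 (1.13). OCLN, a tight junction protein, read 12.26 and 13.43 (-1.17), and 3 of its 4 probe sets were called. The median over this list was 0 to 0.01 and over all genes 0.

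At least 1 mesenchymal effector gene was called in every comparison. In MP2-α2/TC against mock cells CCN2, a growth factor of the matrix, was higher at 4.37 against 3.02 (1.35), and TGFBI was lower, so of 24 tested 1 was higher and 1 lower, beside 0.292% and 0.378% of all genes. In MP2-α2/CI against mock cells TGFBI was the 1 of 24 called, beside 0.389% of all genes lower and 0.262% higher. On collagenI against standard culture CCN2 (-1.36) and TAGLN, an actin-binding protein, at 4.95 and 5.99 (-1.04, 1 of 3 probe sets), were lower, beside 0.15% of all genes. With tailless α2 against the chimera 2 of 22 were higher and 3 lower, beside 10.1% and 4.97% of all genes. COL6A3, a collagen chain, read 7.98 and 11.20 (-3.22), FBN1, a microfibril protein, 4.20 and 6.17 (-1.97), and MYL9, a myosin light chain, 7.02 and 4.80 (2.22). In this comparison 1 of 2 probe sets tested was called for FBN1 and for MYL9. TGFBI (-1.88) and TPM2, a tropomyosin (1.14, 1 of 4 probe sets) named after its value was seen, were the others. Of the 7 fibroblast markers, COL1A2, a collagen chain, read 12.42 in MP2-α2Δ cells against 13.08 in MP2-α9α2 cells and makes up most of the list's sum on the linear scale, 5788 against 8975. COL1A1, THY1 and PDGFRB had the same value on both arrays, 8.11, 2.28 and 2.23, and DCN, LUM and COL3A1 were at the minimum. In MP2-α2/CI, MP2-α2/TC and mock cells the sum was 4299, 4823 and 4182. The part of these markers in the differences was not tested.

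**Figure D4:**
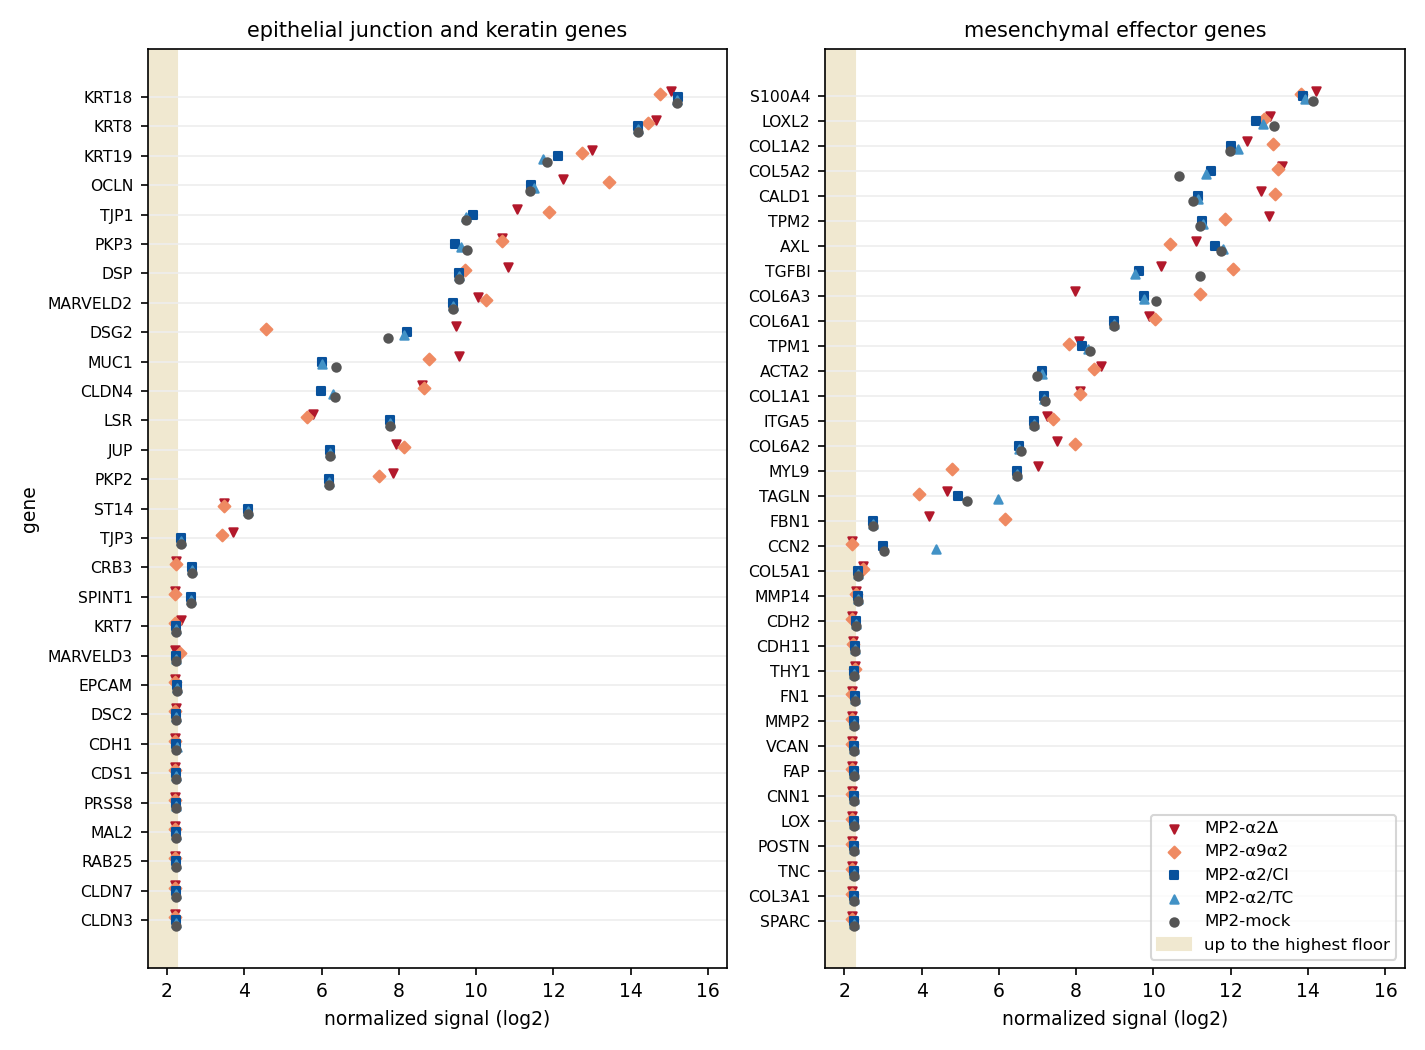
Log2 signal of the epithelial junction and keratin genes (left) and the mesenchymal effector genes (right) by population, each gene by its brightest probe set and ordered by mean, with shading up to the highest floor. KRT8, KRT18, KRT19 and S100A4 lie at the bright end and KRT7, CDH1, EPCAM, CDH2 and FN1 at or near the floor. DSG2, at 9.48 with the tailless α2 and 4.57 with the chimera, is the widest gap between these populations.

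Among other factors of the switch, no gene of 10 to 11 tested was called in the full-length α2 comparisons. There, 0.0395% to 0.389% of all genes were called in each direction. ID2, ID3 and ID1, inhibitors of basic helix-loop-helix factors, were higher in MP2-α2Δ cells at 11.41, 13.38 and 13.37, against 9.18, 11.84 and 12.07 in MP2-α9α2 cells (2.23, 1.54 and 1.30). They were the 3 called of 13 tested, where 10.1% of all genes were higher. Of the epithelial factors, EHF was the 1 called of 9 in MP2-α2/TC against mock cells, beside 0.378% of all genes lower and 0.292% higher. It was also the 1 called of 10 in MP2-α2Δ against MP2-α9α2 cells, beside 4.97% lower and 10.1% higher. Of the ESRP partners and splice targets, 8 were tested in each comparison. In MP2-α2/TC against mock cells 1 was lower and 0 higher, beside 0.378% and 0.292% of all genes. With tailless α2 against the chimera 1 was lower and 1 higher, beside 4.97% and 10.1%. None was called in the other comparisons, and nothing particular to this list is read from the counts. RBM47, an RNA-binding protein, read 6.09 in MP2-α2/TC and 7.24 in mock cells (-1.15). FGFR2, a growth factor receptor spliced under ESRP control, read 4.62 with the tailless α2 against 6.43 with the chimera (-1.81). ENAH, an actin regulator whose exon use ESRP1 controls, was higher with the tailless α2 at 12.47 against 11.31 (1.16). Probe sets of these genes disagreed: 1 of 3 tested for RBM47, 2 of 7 for FGFR2 and 2 of 6 for ENAH were called.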

How the data were processed

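The deposited values were taken as log2 signals, since they span the range of logarithms to base 2. For these log2 values deposited by the authors, GCRMA and MAS5 appear in the submitters' processing notes with neither role nor version. The 2 minima shared among arrays point to normalization in 2 sets, so no difference was taken between the sets. GCRMA adjusts background by probe sequence and can give many probe sets 1 low value, which bears on members at the minimum. Platform annotation gave 41091 of 54613 non-control probe sets a single symbol and 1801 several. The genes, lists and rule of naming were chosen with earlier results of these data known. Every member probe set is described, genes by the probe set with the highest mean, and up to 4 genes a list by size of difference. Values below the floor were raised to it, and at least 2-fold was called. With 1 array a population there was no test. Python 3.11.15, pandas 2.3.3, numpy 2.4.6 and matplotlib 3.10.9 were used, and the calculation was tested on simulated data. Alternatives are in the closing section.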

Additional observations from a re-analysis of the deposited data

How the results depend on the processing

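No paired analysis was possible because each population has 1 array, with no replicates and no result from a test. Of 64 alternative values of the 4 comparisons' member counts, 59 stayed at the reported count. In each of the 3 full-length α2 comparisons 7 of 8 members tested were within 1.1-fold. Most of these counts therefore had little room to change, and the 59 are not read as robustness. The lower count in MP2-α2Δ against MP2-α9α2 cells, 2 as reported, was 1 without _x_at and _s_at probe sets, 1 with 1 probe set per gene, 4 at 1.5-fold and 1 at 3-fold, and in MP2-α2/CI against mock cells 1 became 0 at 3-fold. FOXQ1 kept its sign under all 4 scaling and floor alternatives, between -3.38 and -3.31, -1.16 and -1.13, 2.19 and 2.22, and -2.85 and -2.58 in MP2-α2/TC minus mock, MP2-α2/CI minus mock, MP2-α2/CI minus MP2-α2/TC and MP2-α2Δ minus MP2-α9α2. FOXQ1 lay above the floor on every array, and changing the floor left its differences the same. Only the scaling alternatives could therefore move the differences of FOXQ1. ZEB1's leading probe set lay between -0.91 and -0.88 and VIM's between -0.35 and -0.14 in MP2-α2Δ against MP2-α9α2 cells. No other member call changed. Over all probe sets, the lower and higher counts at 1.5-fold were 179 and 172, 224 and 301, 82 and 87, and 4092 and 4509 in the same order, against 74 and 64, 76 and 70, 31 and 10, and 1533 and 2343 at 2-fold. At 3-fold they were 31 and 20, 30 and 21, 13 and 2, and 432 and 751. Genes at the minimum have only an upper bound, since the floor limits what these arrays can show.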
